A study of Homo sapiens with 4 samples.

Results

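The genes of cholesterol synthesis and of its control by SREBP2 were followed in HepG2 cells, a human liver cancer line. The paper lists it as hepatocellular carcinoma. The kinases CDK4 and CDK6 had been blocked in these cells by a drug or depleted by siRNA. The set held 27 gene symbols, chosen by name for their role in the pathway, out of 24462 symbols in the count files. All 27 were found. They were ordered into 8 genes of the mevalonate arm, 3 from squalene to lanosterol, 8 after lanosterol, 4 of sterol sensing and 4 of sterol handling.

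The study was about SIRT3, a mitochondrial sirtuin, and its relation to glucose metabolism and proliferation in liver cancer. It also asked whether raising SIRT3 by CDK4/6 inhibition enhances the effect of the drug sorafenib. Expression profiling of HepG2 cells was used there for genes of glycolysis and the citric acid cycle after CDK4/6 inhibition, and for the gene categories most changed. Messenger RNA was read with QuantSeq, which counts reads near the 3′ end of polyadenylated transcripts. There were 4 libraries, 1 for each condition, and no replicate. DMSO is the solvent control of PD0332991 (palbociclib), an inhibitor of the CDK4 and CDK6 kinases. Cells given scrambled siRNA were the control of the CDK4/6 KD cells, which received siRNA against both kinases at once. All cells were the same line, kept in RPMI with fetal bovine serum, penicillin and streptomycin. The dose and exposure of PD0332991 and the time after transfection are not stated for the sequenced cells. The DMSO and scrambled siRNA libraries differ in transfection, siRNA and solvent, and possibly in culture, and these cannot be told apart.

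Library totals ran from 8983848 to 11176880 reads, and 12780 to 13257 symbols had at least 10 reads in a library. CDK4 was at 301, 257, 354 and 71.9 CPM (reads scaled to library size) in DMSO, PD0332991, scrambled siRNA and CDK4/6 KD, and CDK6 at 515, 479, 536 and 129, so both targets were lowest in the library labelled CDK4/6 KD. The 6 hepatocyte markers (ALB, AFP, FGB, TF, HNF4A and TTR) had reads in every library and summed to between 4684 and 8546 CPM, the scrambled siRNA library being lowest and CDK4/6 KD highest. Leukocyte markers summed to at most 5.05 CPM, and the defining markers PTPRC and CD3E were at 2 reads or fewer everywhere. The 8 keratinocyte markers summed to between 196 and 361 CPM, most of it SFN and KRT10, and within them KRT5, KRT14 and KRT6A reached 12.4, 27.3 and 16.5 CPM in PD0332991 against 0.219, 0.985 and 0.985 in DMSO, while SFN was at 61.8 against 134. The 4 fibroblast markers, mostly COL1A1, summed to 46.8 CPM in DMSO, 76.1 in PD0332991, 22.3 in CDK4/6 KD and 8.50 in scrambled siRNA. DCN was at 0 reads in DMSO and scrambled siRNA. In bulk RNA, a change in the number of cells of a type and a change in RNA per cell cannot be told apart.

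Cholesterol is built from acetyl-CoA through mevalonate, isoprenoid units, squalene and lanosterol, and liver cells are among its main producers. The transcription factor SREBP2, encoded by SREBF2, is held in the endoplasmic reticulum by SCAP and INSIG proteins while sterols are plentiful. When sterols fall, SCAP carries SREBP2 to the Golgi, proteases there release its active part, and this part enters the nucleus and switches on most enzymes of the pathway together.

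Most messenger RNAs of cholesterol synthesis were higher in both siRNA libraries than in both others, and most shifted in opposite directions in the CDK4/6 KD and PD0332991 libraries when each was set against its own control. The 27 genes together took 0.267% of all reads in PD0332991 (exact 95% binomial interval 0.264 to 0.271), 0.360% in DMSO (0.356 to 0.364), 0.549% in scrambled siRNA (0.545 to 0.554) and 0.692% in CDK4/6 KD (0.687 to 0.697). These intervals, like all others given here, cover counting error only, since reads without molecular identifiers are not independent molecules and no library was repeated. In this 27-gene sum the 2 controls, with no inhibition of CDK4/6, stood further apart than either inhibited library stood from its control. ACAT2 and HSD17B7 have uncertain counts, as described below. The other 25 genes took 0.209% in PD0332991, 0.274% in DMSO, 0.406% in scrambled siRNA and 0.552% in CDK4/6 KD. In percent of reads, the step from scrambled siRNA to CDK4/6 KD was then the largest, by a small margin. In CPM the 25 genes summed to 2059, 2738, 4246 and 5361 in the same order of libraries. On that scale the step between the controls was still the largest.

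The enzymes before and after squalene followed this order, while the sterol-sensing and sterol-handling genes did not. The mevalonate arm took 0.110, 0.165, 0.277 and 0.326% of reads in PD0332991, DMSO, scrambled siRNA and CDK4/6 KD. Squalene to lanosterol took 0.0393, 0.0573, 0.0846 and 0.119%, and the genes after lanosterol 0.0728, 0.0877, 0.129 and 0.199%. Sterol sensing was lowest in DMSO, at 0.0176%, and highest in CDK4/6 KD, at 0.0266%. Sterol handling was highest in scrambled siRNA, at 0.0368%, and lowest in CDK4/6 KD, at 0.0218%. That sum was mostly TMEM97, with 3585 of 4115 reads in scrambled siRNA and 1548 of 2401 in CDK4/6 KD. No other gene of this step was lowest in CDK4/6 KD, and STARD4 was highest there.

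**Figure D1:**
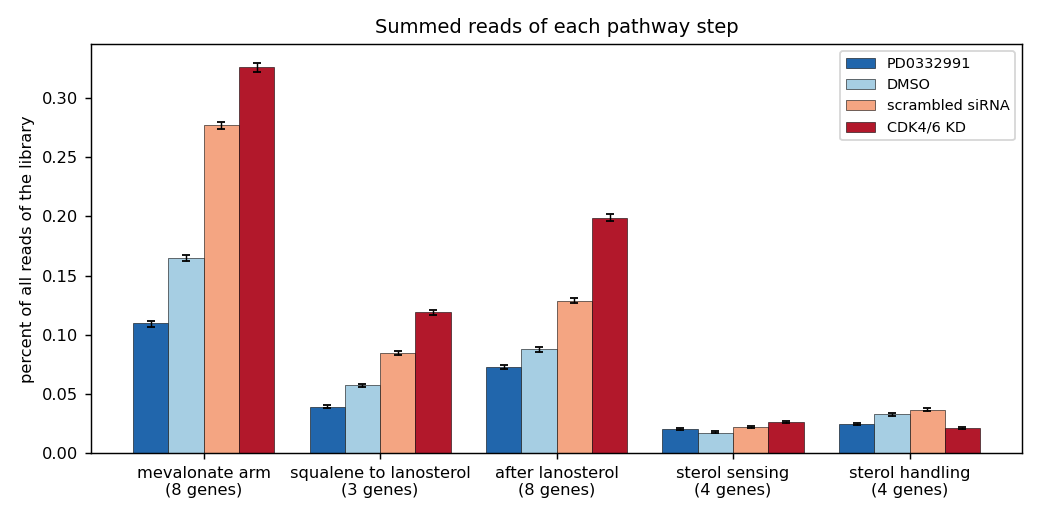
Summed reads of the genes of each pathway step as a percent of all reads of the library (y axis, from 0), for the 4 libraries, 1 per condition. Error bars are exact 95% binomial intervals and cover counting error only. In the first 3 steps the bars climb from PD0332991 through DMSO and scrambled siRNA to CDK4/6 KD, as from 0.110% to 0.326% in the mevalonate arm.

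Fold changes were formed from counts scaled by TMM (an edgeR correction of library size), with 0.5 reads added, for symbols that reached 10 reads in one or both of the libraries compared, and a gene was called at 1.5-fold or more. CDK4/6 KD against scrambled siRNA is called the KD arm, and PD0332991 against DMSO the drug arm. INSIG1, which retains SCAP in the endoplasmic reticulum and is itself a textbook SREBP2 target, had 3 reads in DMSO, 2 in PD0332991, 0 in scrambled siRNA and 3 in CDK4/6 KD. It lay at or under the floor of 3 reads in every library (0.265 to 0.329 CPM) and was given no fold, which left 26 members in each comparison. The annotation used for counting is not given in the sources used here, and whether it covers the 3′ end of INSIG1 was not tested, so these counts do not show that the gene was silent.

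Against scrambled siRNA, CDK4/6 KD had 4 of the 26 members at least 1.5-fold higher, where 19.4% of the 13617 genes tested were so, and 1 at least 1.5-fold lower, against 17.4%. These shares are near the background or under it. The direction was more uniform than the size. Of the 26, 22 had a ratio above 1, and 19 had a whole counting interval above 1, against 30.0% of all genes. Members carry many reads, which narrows their intervals. Among genes that reached 200 reads in one or both, 19 of 25 members and 32.9% of genes had a whole interval above 1. The median log2 fold change of the members was 0.30, and that of all genes was within 0.02 of 0. Beside this, the hepatocyte markers summed to 8546 CPM in CDK4/6 KD and 4684 in scrambled siRNA, with 3 of 6 at least 1.5-fold higher. The fibroblast markers summed to 22.3 and 8.50 CPM, the keratinocyte markers to 202 and 361, and the 6 proliferation markers (MKI67, TOP2A, CCNB1, RRM2, MCM2 and PCNA) to 1178 and 2796, and the part of all these in the result was not tested.

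In PD0332991 against DMSO, 7 of the 26 members were at least 1.5-fold lower (15.1% of 13443 genes) and 0 at least 1.5-fold higher (16.8%). Of the 26, 20 had a ratio under 1, and 18 had a whole interval under 1, against 28.6% of all genes. At 200 reads or more, 17 of 24 members and 38.1% of genes had such an interval. At that depth 7 of 24 members and 13.5% of genes were at least 1.5-fold lower, and 0 of 24 and 8.92% at least 1.5-fold higher. The members' median log2 fold change was −0.33, beside 0.02 for all genes. Beside these lower values, the 8 keratinocyte markers summed to 196 CPM in PD0332991 and 202 in DMSO, with KRT5, KRT14 and KRT6A higher and SFN lower, and the fibroblast markers to 76.1 and 46.8. The 6 proliferation markers summed to 488 CPM in PD0332991 and 3874 in DMSO, each lower by more than 1.5-fold. The part of these markers in the result was not tested.

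The control libraries differed by more than that. In scrambled siRNA against DMSO, 15 of 26 members were at least 1.5-fold higher, where 13.4% of 13303 genes were, and 0 were at least 1.5-fold lower, against 15.7%. A ratio above 1 was found for 23 members, and 22 had a whole interval above 1 (28.3% of all genes, or, at 200 reads or more, 21 of 25 members and 37.9% of genes). At that depth 14 of 25 members and 9.54% of genes were at least 1.5-fold higher. The members' median log2 fold change was 0.62, against 0.01 for all genes. In scrambled siRNA and DMSO, the fibroblast markers summed to 8.50 and 46.8 CPM, the hepatocyte markers to 4684 and 5624, the proliferation markers to 2796 and 3874, and the keratinocyte markers to 361 and 202, with 4 of 5 testable keratinocyte markers at least 1.5-fold higher. Their part in this difference was not tested.

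Set against the control of the other arm, the inhibited libraries therefore gave larger numbers, and these comparisons share their controls with those above. CDK4/6 KD against DMSO had 20 of 26 members at least 1.5-fold higher (16.9% of genes) and 1 lower (17.4%), with a median log2 fold change of 0.92. PD0332991 against scrambled siRNA had 19 of 26 at least 1.5-fold lower (18.3%) and 0 higher (20.0%), with a median of −0.88. The choice of control thus moved the count of higher members in CDK4/6 KD from 4 to 20, and that of lower members in PD0332991 from 7 to 19.

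**Figure D2:**
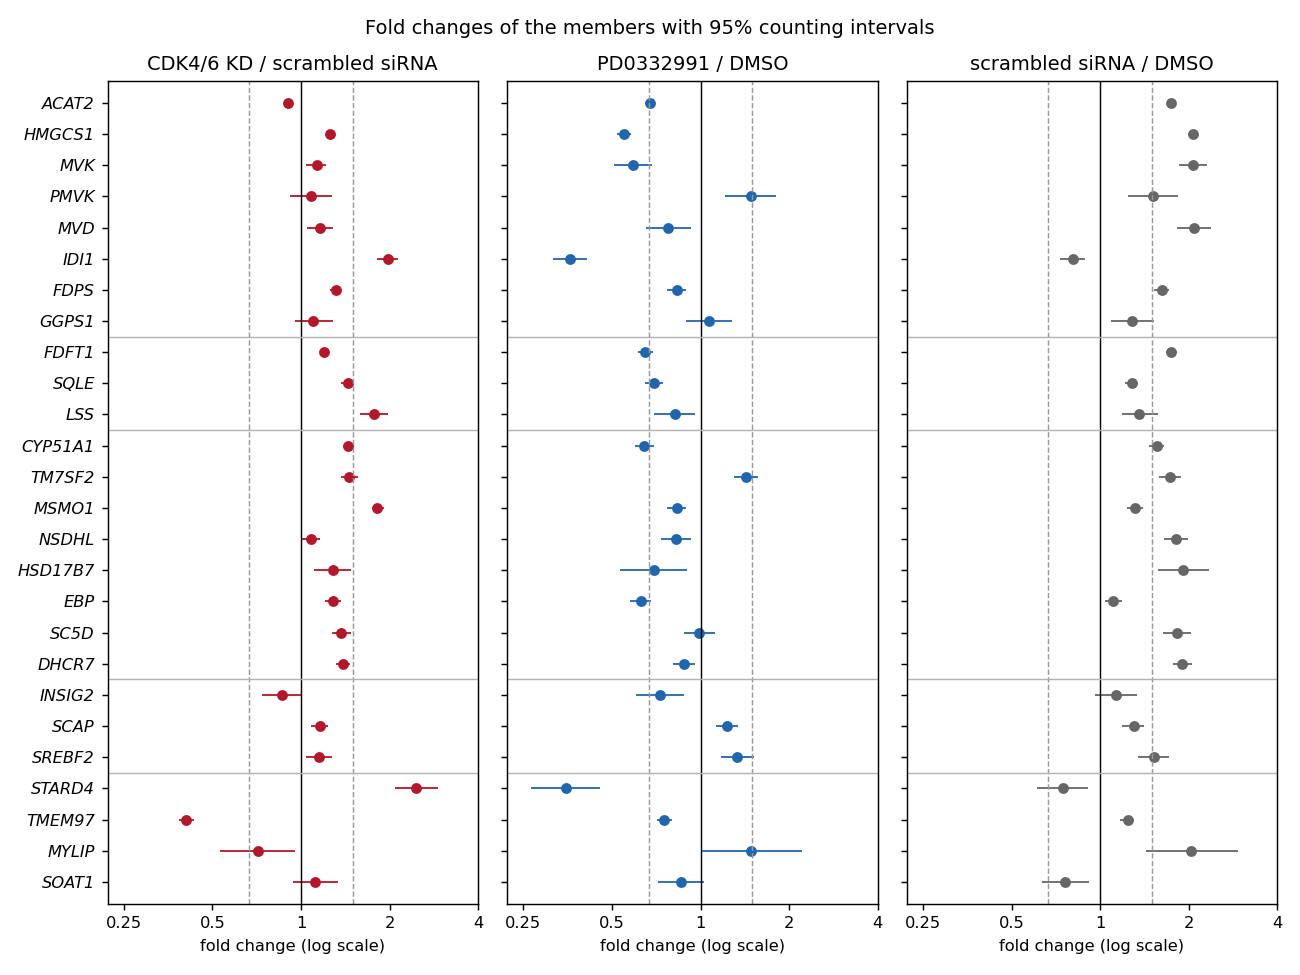
Ratio of normalized counts (x axis, log scale) for the 26 members with a fold, by step, in CDK4/6 KD against scrambled siRNA, PD0332991 against DMSO and scrambled siRNA against DMSO. Points are ratios, lines are 95% counting intervals and dashed lines mark 1.5-fold in each direction. Most points lie right of 1 in the first and last panels and left of 1 in the middle panel, with IDI1 and STARD4 far out on opposite sides in the first and second.

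The order of the 4 libraries was then counted gene by gene, over 13961 symbols with at least 10 reads in at least 1 library. Both inhibited libraries lay under both controls for 2 members, INSIG2 and TMEM97 (21.0% of genes), and over both controls for 0 (21.3%), so few members shifted the same way with the drug and the siRNA beyond the spread of the controls. That spread was wide for the members (median log2 fold change 0.62 between the controls, against 0.01 for all genes), which makes this order harder to meet. For INSIG2, CDK4/6 KD was within counting error of DMSO (ratio 0.972, 0.826 to 1.15). Both siRNA libraries lay over DMSO and PD0332991 for 20 of 26 members (16.2%) and under them for 1, SOAT1 (15.3%), whose levels of 24.0 CPM in CDK4/6 KD and 24.2 in PD0332991 were within counting error of each other. CDK4/6 KD lay over scrambled siRNA while PD0332991 lay under DMSO for 17 members (19.6%). The full order PD0332991, DMSO, scrambled siRNA, CDK4/6 KD, from low to high, was met by 14 members, beside 3.86% of genes. These 14 were HMGCS1, MVK, MVD, FDPS, FDFT1, SQLE, LSS, CYP51A1, MSMO1, NSDHL, HSD17B7, EBP, SC5D and DHCR7, all of them enzymes of the pathway, although for SC5D the step from DMSO to PD0332991 was within counting error (ratio 0.990, 0.875 to 1.12) and turned to 1.002 with total counts as the scale. The orders other than the first pair were chosen after the values were seen and are descriptions of these 4 libraries.

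**Figure D3:**
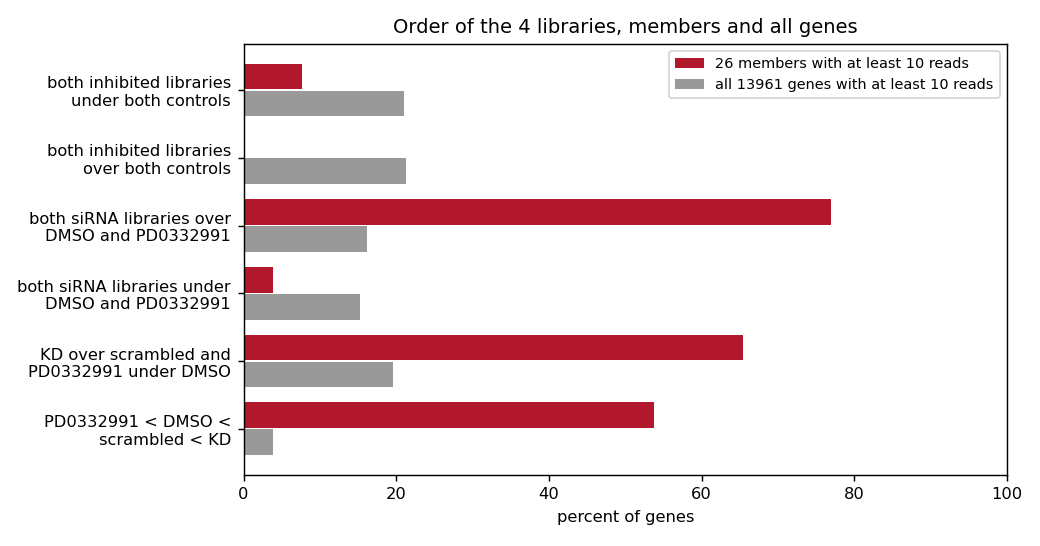
Percent of genes (x axis) showing each order of the 4 libraries, for the 26 members with at least 10 reads in a library (red) and for all 13961 such genes (grey). The members exceed all genes in the share with both siRNA libraries on top (76.9% against 16.2%) and in the full order from PD0332991 to CDK4/6 KD (53.8% against 3.86%), and fall short of them where both inhibited libraries lie together on one side of the controls. That shortfall was not separated from the gap between the controls.

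Across the 26 members, the log2 fold change of CDK4/6 KD against scrambled siRNA and that of PD0332991 against DMSO had a Pearson r of −0.38 and a Spearman rho of −0.29. STARD4 (log2 fold change 1.30 in the KD arm and −1.52 in the drug arm) and IDI1 (0.98 and −1.47) lay furthest out. They had the highest values in the KD arm and the lowest in the drug arm, so r leans on them. The correlation without them was not computed, and these values do not show an inverse relation across the pathway. Across the 13099 genes with both values, r was 0.28 and rho 0.27. These are correlations across genes read in the same 4 libraries, and genes are not independent replicates.

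Most of these enzymes are known to carry sterol regulatory elements, bound by SREBP2, and CCAAT boxes, bound by NF-Y, in their promoters. RefSeq promoters (GRCh38.p14) were available for 24 of the 27 members. In the 250 bases before the start, on either strand, the core TCACCCCA stood in 2 of 24, MVK and SREBF2, where 1.59% of 27305 genes had it. The looser TCACNCCA, which includes the first, stood in 3, with MSMO1 added (3.92%). CCAAT stood in 20 of 24, against 37% of all genes, and MVK and NSDHL had 5 copies each in 1 window. A match is a string in a window and not a measured site, and the 4 members with no CCAAT there were PMVK, CYP51A1, INSIG2 and SCAP. The runs below are those of TM7SF2 and TMEM97, the members with the largest shift in the same direction under the drug and the siRNA, and of SREBF2, followed by 3 chosen after their values were seen for opposite shifts, HMGCS1, MSMO1 and STARD4. Each is written 5′ to 3′ on the strand of its gene, with CCAAT (or ATTGG, its reverse) and TCACNCCA in capitals, and stops where the GENCODE 29 gene begins.
TM7SF2, chr11:65111622-65111844, forward strand: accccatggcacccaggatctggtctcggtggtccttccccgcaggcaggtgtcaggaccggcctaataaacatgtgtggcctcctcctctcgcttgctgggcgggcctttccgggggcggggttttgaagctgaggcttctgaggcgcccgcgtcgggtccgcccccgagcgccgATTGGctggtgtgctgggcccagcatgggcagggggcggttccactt
TMEM97, chr17:28318950-28319094, forward strand: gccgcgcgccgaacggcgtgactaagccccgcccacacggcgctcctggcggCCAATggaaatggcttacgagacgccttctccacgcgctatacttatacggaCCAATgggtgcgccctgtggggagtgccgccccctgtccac
SREBF2, chr22:41832855-41833078, forward strand: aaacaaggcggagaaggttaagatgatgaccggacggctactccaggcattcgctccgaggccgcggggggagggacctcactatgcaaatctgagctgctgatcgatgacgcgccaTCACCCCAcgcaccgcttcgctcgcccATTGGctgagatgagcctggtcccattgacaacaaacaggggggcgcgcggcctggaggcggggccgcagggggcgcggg
HMGCS1, chr5:43313513-43313662, reverse strand: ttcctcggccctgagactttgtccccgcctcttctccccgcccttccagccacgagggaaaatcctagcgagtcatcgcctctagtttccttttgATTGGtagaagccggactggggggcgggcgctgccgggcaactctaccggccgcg
MSMO1, chr4:165327419-165327622, forward strand: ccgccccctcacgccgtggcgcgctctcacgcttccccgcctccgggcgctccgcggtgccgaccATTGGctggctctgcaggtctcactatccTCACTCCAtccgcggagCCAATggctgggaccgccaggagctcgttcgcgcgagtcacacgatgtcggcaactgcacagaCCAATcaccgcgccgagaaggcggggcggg
STARD4, chr5:111512591-111512785, reverse strand: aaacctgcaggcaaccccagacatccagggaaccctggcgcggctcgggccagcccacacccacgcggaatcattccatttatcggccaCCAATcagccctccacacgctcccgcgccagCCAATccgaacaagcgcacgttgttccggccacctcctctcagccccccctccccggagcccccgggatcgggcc

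The printed runs hold 1 CCAAT for TM7SF2, which was above its control in both arms, 2 for TMEM97, which was below it in both, and 2 for STARD4, which was above it in one arm and below it in the other. SREBF2 carried TCACCCCA from 133 to 126 bases before its RefSeq start. MSMO1 carried TCACTCCA from 156 to 149 bases before its start.

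The mevalonate arm turns acetyl-CoA into the isoprenoid units from which sterols are made. HMGCS1, the synthase that makes HMG-CoA, was counted 1994 times in PD0332991, 3642 in DMSO, 8819 in scrambled siRNA and 11758 in CDK4/6 KD, or 219, 399, 824 and 1039 CPM. Each step of that order was larger than counting error. PD0332991 stood at 0.549 of DMSO (95% interval 0.520 to 0.580), CDK4/6 KD at 1.26 times scrambled siRNA (1.23 to 1.30), and scrambled siRNA at 2.07 times DMSO (1.99 to 2.15). HMGCS1 (chromosome 5, 43289395 to 43313512, reverse strand, GENCODE 29 on GRCh38) had the highest ratio among the members between CDK4/6 KD and DMSO after DHCR7, at 2.61.

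MVK (chromosome 12, 109573255 to 109598117, forward strand), mevalonate kinase, was at 31.1 CPM in PD0332991, 52.9 in DMSO, 109 in scrambled siRNA and 124 in CDK4/6 KD. Its ratio was 0.588 for PD0332991 against DMSO (0.506 to 0.682), 1.13 for CDK4/6 KD against scrambled siRNA (1.04 to 1.22) and 2.07 for scrambled siRNA against DMSO (1.86 to 2.31). MVK shares 306 exon bases with MMAB on the other strand. The drug library thus lay well under its control, while the KD library lay close above its own.

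IDI1 (chromosome 10, 1039152 to 1049170, reverse strand), the isomerase that interconverts the isoprenoid building blocks, broke the common order because it was not higher in scrambled siRNA than in DMSO. It had 301 reads in PD0332991, 840 in DMSO, 794 in scrambled siRNA and 1653 in CDK4/6 KD, or 33.1, 91.9, 74.2 and 146 CPM. The controls were close, at a ratio of 0.807 (0.732 to 0.890). CDK4/6 KD was 1.97 times scrambled siRNA (1.81 to 2.14) and PD0332991 0.360 of DMSO (0.314 to 0.411), or 2.78-fold lower. IDI1 was thus past 1.5-fold in opposite directions in the 2 arms, and also against the other control (1.59 times for CDK4/6 KD against DMSO, 0.446 for PD0332991 against scrambled siRNA). It shares 643 exon bases with IDI2-AS1 on the other strand.

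The rest of the arm was past 1.5-fold in neither inhibited library against its own control. MVD, the decarboxylase that makes isopentenyl diphosphate, was at 25.4, 32.6, 67.9 and 79.1 CPM in PD0332991, DMSO, scrambled siRNA and CDK4/6 KD. FDPS, which builds farnesyl diphosphate, was at 151, 182, 294 and 388 CPM. Both kept the common order, with CDK4/6 KD 2.42 and 2.14 times DMSO, and FDPS has 8 named pseudogenes that could share its reads. PMVK, phosphomevalonate kinase, was lowest in DMSO, at 18.1 CPM, against 26.7 in PD0332991, 27.3 in scrambled siRNA and 29.4 in CDK4/6 KD. GGPS1, which makes geranylgeranyl diphosphate for a branch away from sterols, ranged only from 25.9 CPM in DMSO to 36.8 in CDK4/6 KD. Its intervals included 1 in both inhibited arms, at 1.07 for the drug (0.890 to 1.28) and 1.10 for the KD (0.957 to 1.28). GGPS1 shares 1422 exon bases with TBCE on the same strand, so its count could include reads of that gene.

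ACAT2, the cytosolic thiolase that joins acetyl-CoA molecules, had 5166, 7706, 15661 and 14964 reads in PD0332991, DMSO, scrambled siRNA and CDK4/6 KD. It was the member with the most reads in every library, and its count cannot be taken as its own. TCP1, a chaperonin subunit gene on the other strand that shares 397 exon bases with ACAT2, had 5373, 8127, 16054 and 15381 reads, so that the ratio of ACAT2 to TCP1 stayed between 0.948 and 0.976. Whether strand was used in counting is not given in the sources used here. Without ACAT2 the arm still took 0.0520, 0.0803, 0.137 and 0.189% of reads in that order of libraries.

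From squalene to lanosterol, all 3 genes kept the common order. FDFT1, squalene synthase and the first step committed to sterols, was at 207 CPM in PD0332991, 319 in DMSO, 556 in scrambled siRNA and 666 in CDK4/6 KD. It was 1.54-fold lower in the drug library (ratio 0.648, 0.611 to 0.687) and 1.20 times scrambled siRNA in CDK4/6 KD (1.16 to 1.24). LSS (chromosome 21, 46188141 to 46228824, reverse strand), which closes the ring system to form lanosterol, had 30.8, 37.6, 51.4 and 91.0 CPM. For LSS the KD arm carried the larger shift, 1.77 times scrambled siRNA (1.59 to 1.97), beside a drug ratio of 0.817 (0.695 to 0.959). SQLE, the epoxidase of squalene, was at 150.4, 216, 276 and 396 CPM and missed 1.5-fold in both arms, at 0.696 for the drug (0.649 to 0.746) and 1.44 for the KD (1.37 to 1.5).

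After lanosterol, all 8 genes had a ratio above 1 in CDK4/6 KD against scrambled siRNA, with the whole interval above 1, and 7 of 8 a ratio under 1 in PD0332991 against DMSO. CYP51A1 (chromosome 7, 92112151 to 92134803, reverse strand), the lanosterol demethylase, was at 127 CPM in PD0332991, 198 in DMSO, 308 in scrambled siRNA and 447 in CDK4/6 KD. The drug ratio was 0.644 (0.598 to 0.694) and the KD ratio 1.45 (1.39 to 1.51). Its count could include reads of 3 named pseudogenes and of a same-strand gene model that shares 2844 exon bases.

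MSMO1 (chromosome 4, 165327623 to 165343160, forward strand), the methylsterol oxidase, was at 143, 172, 226 and 413 CPM in the same order of libraries. It was higher mainly in the KD library, at 1.82 times scrambled siRNA (1.74 to 1.92), while the drug ratio was 0.831 (0.771 to 0.895). EBP (chromosome X, 48521158 to 48528716, forward strand), the sterol isomerase, was at 101, 162, 180.4 and 232 CPM and showed the reverse balance, with a drug ratio of 0.625 (0.575 to 0.679) and a KD ratio of 1.29 (1.21 to 1.37). The size of the shift in one arm therefore did not give the size in the other.

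TM7SF2 (chromosome 11, 65111845 to 65116384, forward strand), a sterol reductase, was the 1 enzyme with a whole counting interval above 1 in both arms. It was at 81.8 CPM in DMSO, 117 in PD0332991, 142 in scrambled siRNA and 207 in CDK4/6 KD. Both inhibited libraries were above their own controls by nearly the same ratio, 1.43 for the drug (1.30 to 1.57) and 1.46 for the KD (1.37 to 1.56), each short of 1.5-fold. The scrambled siRNA library also stood above DMSO, at 1.73 times (1.59 to 1.89).

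NSDHL, which removes a carboxyl group from the sterol ring, SC5D, which adds a double bond, and DHCR7, which removes the last one before cholesterol, were within 1.5-fold in both arms. In PD0332991, DMSO, scrambled siRNA and CDK4/6 KD, NSDHL was at 58.6, 71.1, 129 and 139 CPM. SC5D was at 56.6, 57.1, 104 and 143 CPM, and DHCR7 at 104, 118, 225 and 314. For all 3 the step between the controls was the largest, at 1.81, 1.82 and 1.90 times. DHCR7 had the highest ratio of CDK4/6 KD to DMSO among the members, 2.65 (2.48 to 2.84). HSD17B7, a ketoreductase, had 100, 145, 325 and 441 reads in that order, and its pseudogene HSD17B7P2 had 94, 123, 303 and 358, so its values are uncertain.

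**Figure D4:**
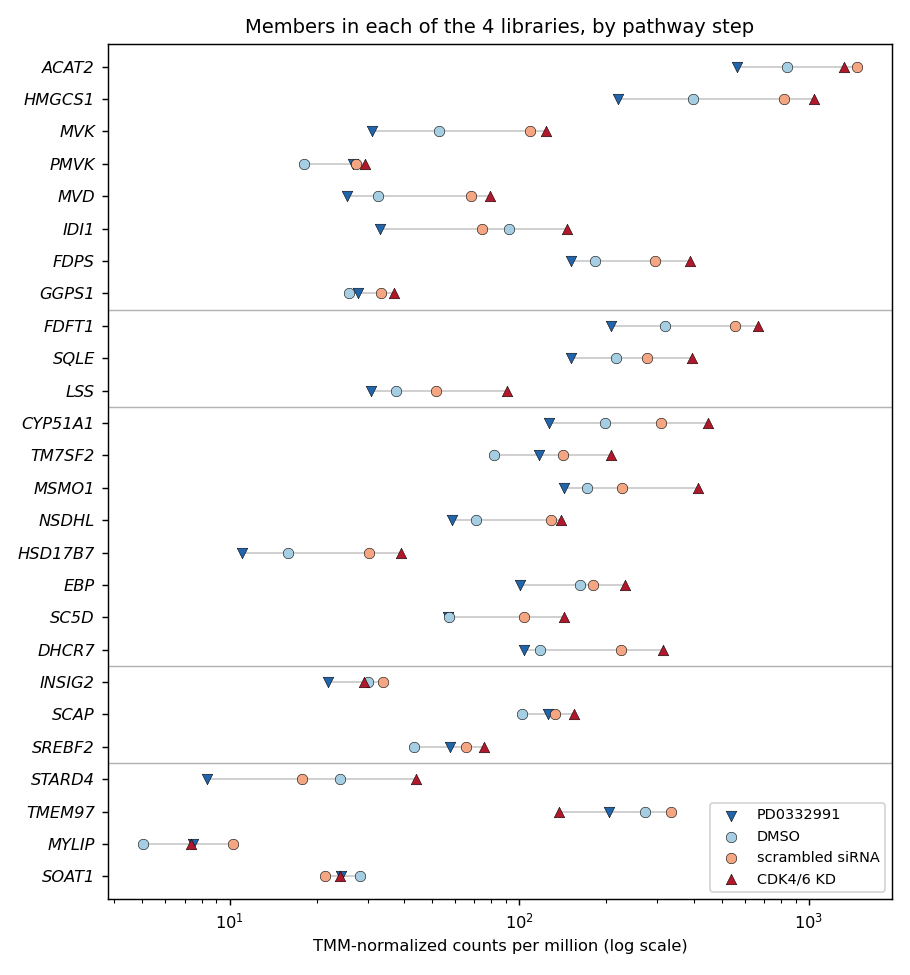
TMM-normalized CPM (x axis, log scale) of the 26 members with a fold in each of the 4 libraries, 1 point per library, with grey lines from the lowest to the highest and horizontal rules between pathway steps. Among the enzymes, PD0332991 is mostly leftmost and CDK4/6 KD rightmost, as for HMGCS1 from 219 to 1039 CPM, while TMEM97 has CDK4/6 KD leftmost, at 137 CPM.

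Of the 3 testable genes that sense sterols, none reached 1.5-fold in either arm. SREBF2 (chromosome 22, 41833079 to 41907308, forward strand) was at 43.2 CPM in DMSO, 57.5 in PD0332991, 65.6 in scrambled siRNA and 75.5 in CDK4/6 KD. Its ratio was 1.33 for the drug (1.17 to 1.52), 1.15 for the KD (1.04 to 1.27) and 1.52 for scrambled siRNA against DMSO (1.34 to 1.72). The message of the pathway's regulator was thus higher in PD0332991 than in DMSO, where most of the enzymes were lower. SREBP2 activity depends on cleavage of the protein, which mRNA counts do not measure.

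SCAP (chromosome 3, 47413694 to 47477126, reverse strand), the escort protein of SREBP2, was at 102 CPM in DMSO, 126 in PD0332991, 133 in scrambled siRNA and 154 in CDK4/6 KD. It ran in the same order as SREBF2, with a ratio of 1.23 for the drug (1.13 to 1.34), 1.16 for the KD (1.08 to 1.24) and 1.30 for the controls (1.19 to 1.41). INSIG2, the second retention protein of SCAP, was at 21.9 CPM in PD0332991, 29.2 in CDK4/6 KD, 30.0 in DMSO and 33.9 in scrambled siRNA. Its ratio was 0.729 for the drug (0.604 to 0.878) and 0.860 for the KD, where the interval reached 1.00.

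Among genes that handle sterols, STARD4 (chromosome 5, 111496033 to 111512590, reverse strand), a soluble carrier of cholesterol and a known SREBP2 target, shifted most in opposite directions. It had 76 reads in PD0332991, 219 in DMSO, 191 in scrambled siRNA and 498 in CDK4/6 KD, or 8.35, 24.0, 17.8 and 44.0 CPM. Its ratios were 2.46 for the KD (2.08 to 2.93) and 0.350 for the drug (0.265 to 0.454), or 2.86-fold lower. As with IDI1, the scrambled siRNA library held less STARD4 than the DMSO library did, at a ratio of 0.745 (0.610 to 0.908). With the controls exchanged, both shifts kept their direction but were smaller. The ratio was 1.83 for CDK4/6 KD against DMSO (1.56 to 2.16) and 0.469 for PD0332991 against scrambled siRNA (0.354 to 0.613). The part of the control difference in the STARD4 shifts was not tested.

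TMEM97 (chromosome 17, 28319095 to 28328685, forward strand), the sigma-2 receptor, which binds the cholesterol transporter NPC1, went the other way from the enzymes in the KD library. It was at 137 CPM in CDK4/6 KD, 204 in PD0332991, 271 in DMSO and 335 in scrambled siRNA. CDK4/6 KD was 2.45-fold lower than scrambled siRNA (ratio 0.408, 0.384 to 0.433) and 1.98-fold lower than DMSO, the only member at least 1.5-fold lower in either. The drug ratio was 0.754 (0.710 to 0.801). TMEM97 shares 361 exon bases with IFT20 on the other strand.

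MYLIP, a ubiquitin ligase that targets lipoprotein receptors and is induced through LXR, had only 46 reads in DMSO, 68 in PD0332991, 110 in scrambled siRNA and 83 in CDK4/6 KD. Its ratio of 0.715 for the KD (0.530 to 0.957) and 1.48 for the drug (1.01 to 2.21) pointed away from most enzymes, with wide intervals. SOAT1, which esterifies cholesterol for storage, stayed between 21.4 CPM in scrambled siRNA and 28.1 in DMSO. Neither arm moved it beyond counting error, with a KD ratio of 1.12 (0.938 to 1.34) and a drug ratio of 0.859 (0.714 to 1.03).

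Genes around the pathway were read from 3 further lists. For SREBP cleavage and turnover, 9 of 9 genes were tested. In CDK4/6 KD against scrambled siRNA, 2 were at least 1.5-fold higher (22.2%, against 19.4% of all genes) and 1 lower (11.1%, against 17.4%), with a median log2 fold change of 0.27. MBTPS1, the first protease that cuts SREBP2, was at 109.9 CPM in DMSO, 129 in PD0332991, 56.6 in scrambled siRNA and 152 in CDK4/6 KD. SPRING1, a Golgi protein needed for SCAP and protease function, listed in the files under its older symbol C12orf49, was at 92.0, 89.8, 50.9 and 123 CPM. Both ratios in the KD arm, 2.69 and 2.42, sat on a scrambled siRNA library that was itself the lowest of the 4, at 0.516 and 0.554 of DMSO, and against DMSO the KD ratios were 1.39 and 1.34.

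ERLIN1, a membrane protein of the machinery that degrades endoplasmic reticulum proteins, was at 82.6 CPM in DMSO, 61.2 in PD0332991, 60.7 in scrambled siRNA and 27.8 in CDK4/6 KD. The KD thus lay 2.18-fold under its control. In the drug arm the median log2 fold change of this list was 0.23, beside −0.33 for the members.

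In the branches that use isoprenoids for dolichol, ubiquinone and protein prenylation, all 13 genes were tested, and their median on the log2 scale was 0.13 in the KD arm and 0.01 in the drug arm. In the KD arm 3 were at least 1.5-fold lower, DHDDS, NUS1 and PDSS1 (23.1%, against 17.4% of all genes), and 1 higher, PGGT1B (7.69%, against 19.4%). In the drug arm 4 were lower, NUS1, PDSS1, COQ2 and RABGGTB (30.8%, against 15.1%), and 1 higher, RCE1 (7.69%, against 16.8%). NUS1 and DHDDS form the enzyme that makes dolichol chains, and PDSS1 and COQ2 act in ubiquinone synthesis. NUS1 was at 51.9, 33.2, 46.0 and 29.2 CPM in DMSO, PD0332991, scrambled siRNA and CDK4/6 KD, and PDSS1 at 20.4, 12.7, 22.2 and 12.7. Both were thus lower in the drug and the siRNA library than in either control, unlike most of the sterol enzymes.

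Of 15 genes of sterol movement and storage, 13 could be tested. The KD arm had 2 at least 1.5-fold higher, STARD5 and NCEH1 (15.4%, against 19.4% of all genes), and 1 lower, SOAT2 (7.69%, against 17.4%), with a median log2 fold change of 0.13. The drug arm had 3 higher, STARD5, GRAMD1A and SOAT2 (23.1%, against 16.8%), and 0 lower (15.1% of all genes), with a median of 0.26. SOAT2, the hepatocyte enzyme that esterifies cholesterol for lipoproteins, was at 27 CPM in DMSO, 52.2 in PD0332991, 90.6 in scrambled siRNA and 28.5 in CDK4/6 KD. The scrambled siRNA library stood out, at 3.35 times DMSO, so that in CDK4/6 KD the gene was 3.17-fold lower than in that control and 1.06 times its level in DMSO.

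Several members overlap other annotated genes. Exons of 13 of the 27 overlap those of another gene in GENCODE 29, 12 of them on the other strand, and 4 members have named pseudogenes. With ACAT2 and HSD17B7 left out, a choice made after the data were seen, 4 members remained at least 1.5-fold higher in CDK4/6 KD against scrambled siRNA, 7 lower in PD0332991 against DMSO and 13 of 24 higher in scrambled siRNA against DMSO.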

How the data were processed

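For each library the authors deposited 1 table of raw counts by gene symbol, not normalized. Libraries were made with the QuantSeq 3′ kit. Bowtie2, edgeR and hg19 are named in the submitters' processing notes, and the counter, annotation and strand setting are not given in the sources used here. Each table held 25737 entries, and counts were added up for 286 repeated symbols. TMM factors (edgeR 4.0.16, R 4.3.3) ran from 0.957 to 1.029. Conditions had no replicates, so no quasi-likelihood model could be fitted and no p-value was computed. Ratios carry 95% intervals (exact, Clopper-Pearson, on how the reads split) (scipy 1.17.1), which cover counting error only. On simulated data drawn for CDK4/6 KD against scrambled siRNA over 13052 genes, 95.91% of intervals held the true ratio. In that draw, 378 genes with no change were at 1.5-fold or more. The counts were Poisson draws with no variation between cultures, so this checks the computation only.

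All 27 members were named, those past 1.5-fold in an inhibited library against its own control, SREBF2 and SCAP being described with every library, and genes of 3 further lists were named where past 1.5-fold there. Promoters printed by rule were those of the members with the largest shift in one direction in both arms, and of SREBF2. The members, lists and thresholds were chosen with earlier results of these data known. Some genes of the pathway and of these lists are not reported here. Alternatives were DESeq2 1.42.0 size factors, total counts, a pseudocount of 5 reads, no filter, a filter of 50 reads, only the entry with most reads for a repeated symbol, a 2-fold threshold and intervals wholly past 1.5-fold. Gene positions are from GENCODE 29 on GRCh38, matched by symbol.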

Additional observations from a re-analysis of the deposited data

Results flagged for a closer look

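IDI1 was past 1.5-fold in opposite directions in the CDK4/6 KD and PD0332991 libraries, each against its own control, and its log2 fold changes differed by 2.45 between the arms. STARD4 did the same, with a difference of 2.82. Neither difference was tested, because each arm has 1 library per condition.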

How the results depend on the processing

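Of 312 alternatives for single members in the KD and drug arms, 1 turned a direction, SC5D in PD0332991 against DMSO under total counts (ratio 1.002, against 0.990), which took the members in the full order from 14 to 13 and those with opposite shifts from 17 to 16. Scaling by total counts alone moved the median of all genes in CDK4/6 KD against scrambled siRNA to 0.10 on the log2 scale. It raised the members at least 1.5-fold higher there from 4 to 7 and their median from 0.30 to 0.40, put 2 members over both controls in both inhibited libraries, and left 0 members with both siRNA libraries under the others. Total counts also took the members with both siRNA libraries over the others from 20 to 18. Those at least 1.5-fold higher in scrambled siRNA against DMSO went from 15 to 12. At a 2-fold threshold, 1 member was higher in CDK4/6 KD against scrambled siRNA, 2 were lower in PD0332991 against DMSO, 4 were higher in scrambled siRNA against DMSO, 12 higher and 0 lower in CDK4/6 KD against DMSO, and 11 lower in PD0332991 against scrambled siRNA. Asking for the whole interval past 1.5-fold left 3 lower in PD0332991 against DMSO. With no filter, INSIG1 entered, giving 1 lower in scrambled siRNA against DMSO and 1 higher in PD0332991 against scrambled siRNA. DESeq2 size factors, a pseudocount of 5 reads, a filter of 50 reads and the most counted entry kept every count within 1.5 times. No paired analysis was possible because each condition has 1 library. With no replicates, differences between cultures cannot be separated from those between conditions, and read numbers limit MYLIP, while the cause of the near absence of INSIG1 reads was not tested.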
